A study of Mus musculus with 36 samples.

Results

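Interferon-stimulated genes are described here across 12 groups of mouse CD4 T cells, as a list of 40 genes taken by symbol. A gene was read from the array probe set that carried its symbol and no other, and from the probe set with the highest mean where it had several. Of the 40 genes, 37 had such a probe set, and Ifi44, Dtx3l and Gbp2 are not analysed here. All 37 were among the 13082 genes tested, out of 22180 genes with such a probe set on the array. The cells were naive CD4 T cells, enriched magnetically and sorted by flow cytometry, of wild-type littermates (WT) and of TRIM28KO mice (KO). They were profiled as naive cells or after 72 h of stimulation through CD3 (antibody fixed to the plate) and CD28 (antibody in solution), in conditions named Th0, Th1, Th2, Th17 and Treg. The labels give 3 samples for each of the 12 groups, 36 in all. They do not give the cytokines of each condition, the Cre line or allele behind the knockout, the strain, age or sex of the mice, or the number of animals behind a group. The p-values therefore measure the spread between these samples, which may be technical.

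Interferon-stimulated genes form the antiviral program that a cell switches on when interferon binds its receptor. Type I interferons (the alpha and beta forms) signal through IFNAR1 and IFNAR2 and the kinases JAK1 and TYK2 to factors that include STAT2 and IRF9 and act at the interferon-stimulated response element, ISRE. Interferon-gamma signals through its own receptor to the gamma-activated site, GAS, and raises among others IRF1, guanylate-binding and immunity-related GTPases and the genes of antigen presentation. Many of the genes also keep a tonic level in resting T cells, and Th1 cells, unlike Th2, Th17 or regulatory T cells, are themselves a source of interferon-gamma. TRIM28 (KAP1) is recruited to DNA by KRAB zinc-finger proteins and represses transcription there.

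Promoter letters were available for 28 of the 37 genes in RefSeq's table for build GRCm38.p6, which gives 250 bases before each transcription start. The ISRE core, searched as GAAANNGAAA on both strands, was present in a promoter of 12 of the 28 genes (42.9%), against 3.46% of the 27025 genes in the table. Printed here are the stretches of those genes that were lower in both KO Th0 and KO Th1 cells and hold the core, and, chosen after their values were seen, Ifit1 (lower in KO Th0 alone) and Igtp (lower in neither). They read 5′ to 3′ along the gene's strand, and capitals mark the core or its reverse complement, including overlapping copies.
Oas3: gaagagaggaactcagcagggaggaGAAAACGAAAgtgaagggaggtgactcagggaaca
Rsad2: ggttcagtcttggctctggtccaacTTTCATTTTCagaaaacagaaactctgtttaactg
Bst2: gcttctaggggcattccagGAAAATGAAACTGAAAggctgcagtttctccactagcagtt
Isg15: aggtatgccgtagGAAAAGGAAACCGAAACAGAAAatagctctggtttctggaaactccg
Ifit1: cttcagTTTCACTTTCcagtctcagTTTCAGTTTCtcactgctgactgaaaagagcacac
Igtp: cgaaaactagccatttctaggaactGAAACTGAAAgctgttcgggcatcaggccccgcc
The Oas3 stretch lies at chr5:120777700-120777759 on the minus strand. Rsad2 has its stretch at chr12:26456538-26456597, Bst2 at chr8:71537562-71537621 and Isg15 at chr4:156200850-156200909, all on the minus strand. For Ifit1 it is chr19:34640779-34640838 and for Igtp chr11:58199497-58199555, both on the plus strand. The core nearest the start begins 75 bases before it in Oas3, 120 in Rsad2, 124 in Bst2, 66 in Isg15, 85 in Ifit1 and 34 in Igtp. Isg15 holds 3 overlapping copies, and Bst2 and Ifit1 hold 2 each. Read by response, the core was present in 8 of the 20 members with a promoter entry that were lower in KO Th0 cells and in 4 of the 8 that were not, among them Gbp3 and Igtp. The GAS letters, TTCNNNGAA on both strands, were in 5 of the 28 (17.9%, against 8.13% of the genes in the table), namely Ifit2, Isg20, Eif2ak2, Bst2 and Igtp. In Bst2 they overlap the core's letters and in Igtp they do not. A match describes these letters and is not a bound site.

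The libraries were first read for their labels. Trim28 lay between 9.21 and 9.99 in the 18 WT samples, between 7.20 and 7.86 in KO naive cells and between 5.51 and 6.58 in stimulated KO cells. The T cell genes Cd4 (10.45 to 11.62) and Cd3e (11.56 to 12.57) were high in every sample, whereas Cd79a and Ms4a1 of B cells, Lyz2 and Csf1r of myeloid cells, Siglech of plasmacytoid dendritic cells and Ncr1 of NK cells stayed at or below 5.2. Other genes of those lists were high in some samples, up to 9.27 for Ebf1, 10.32 for Adgre1, 12.33 for Ly6c2, 11.97 for Lilrb4a and 10.93 for Gzma. Summed over 9 B cell genes, the level was 37.83 to 38.71 in WT Th0 and 37.89 to 37.97 in KO Th0, over 13 myeloid genes it was 67.72 to 70.52 and 66.53 to 69.87, and over 8 NK cell genes 37.93 to 41.07 and 38.88 to 42.54. Single genes differed in KO Th0, with Klrd1 higher by 1.38 and Lilrb4a (-1.11), Cd8b1 (-0.59) and Cd79b (-0.50) lower. Of the dendritic cell genes, Tcf4 was higher and Bst2, also one of the 37 genes, lower by 1.70. Their sum over 10 genes was 53.94 to 55.35 in WT Th0 and 53.86 to 54.19 in KO Th0. Of the CD4 T cell genes, Cd3d and Cd3e were higher and Thy1 was lower. In Th1 the sums were 38.09 to 39.35 in WT and 37.68 to 39.80 in KO for B cell genes, and 74.51 to 76.01 and 71.17 to 72.82 for myeloid genes, and 48.12 to 48.77 and 43.86 to 46.18 for NK cell genes, of which Gzma and Eomes fell. The part of other cell types in the results was not tested. The levels are log2 array values with sample medians between 5.18 and 5.35, and the number of arrays limits their precision. The table holds no detection calls, and values around the medians are near the low end of the scale. In bulk samples, fewer cells expressing a gene and less RNA per cell cannot be told apart. By Xist, WT naive 1, KO naive 1 and KO naive 2 came from females and the other 33 samples from males. KO naive 3 stood apart from the other naive KO samples, with 32 of the 37 genes below all 3 WT samples, against 14 and 9 in KO naive 1 and 2. The same count was not taken over all genes, so a shift particular to the list is not shown. Sample 1 of KO Th0 and of KO Th1 stood apart too, as described with their results.

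In WT cells 20 of the 37 genes had every naive, Th0 and Th1 sample above every Th2, Th17 and Treg sample. How many of all genes tested did so was not counted. The conditions were grouped in this way with earlier results of these data known. Naive cells were not compared with the last 3 conditions by a test, and other genes had a lower mean in naive cells than in Th2 (5 genes: Oas3, Isg20, Eif2ak2, Mx1 and Stat2), in Th17 (6, among them Gbp3 and Bst2) or in Treg (Gbp3). Oas2, which makes the 2-5A messenger that activates RNase L, was 9.53, 9.37 and 9.93 in the 3 naive samples, 9.92, 9.86 and 10.01 in Th0, and 8.98, 8.66 and 9.01 in Th1. It was 7.15, 6.20 and 5.33 in Th2, 4.63, 4.80 and 5.32 in Th17, and 5.38, 4.81 and 5.08 in Treg. No sample of the first 3 conditions overlapped with the last 3. Irf7, the factor that amplifies type I interferon, was likewise higher in WT naive, Th0 and Th1 samples than in the rest, with 9.71, 9.68 and 9.84 in Th0 and 6.56, 6.66 and 6.75 in Treg.

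**Figure D1:**
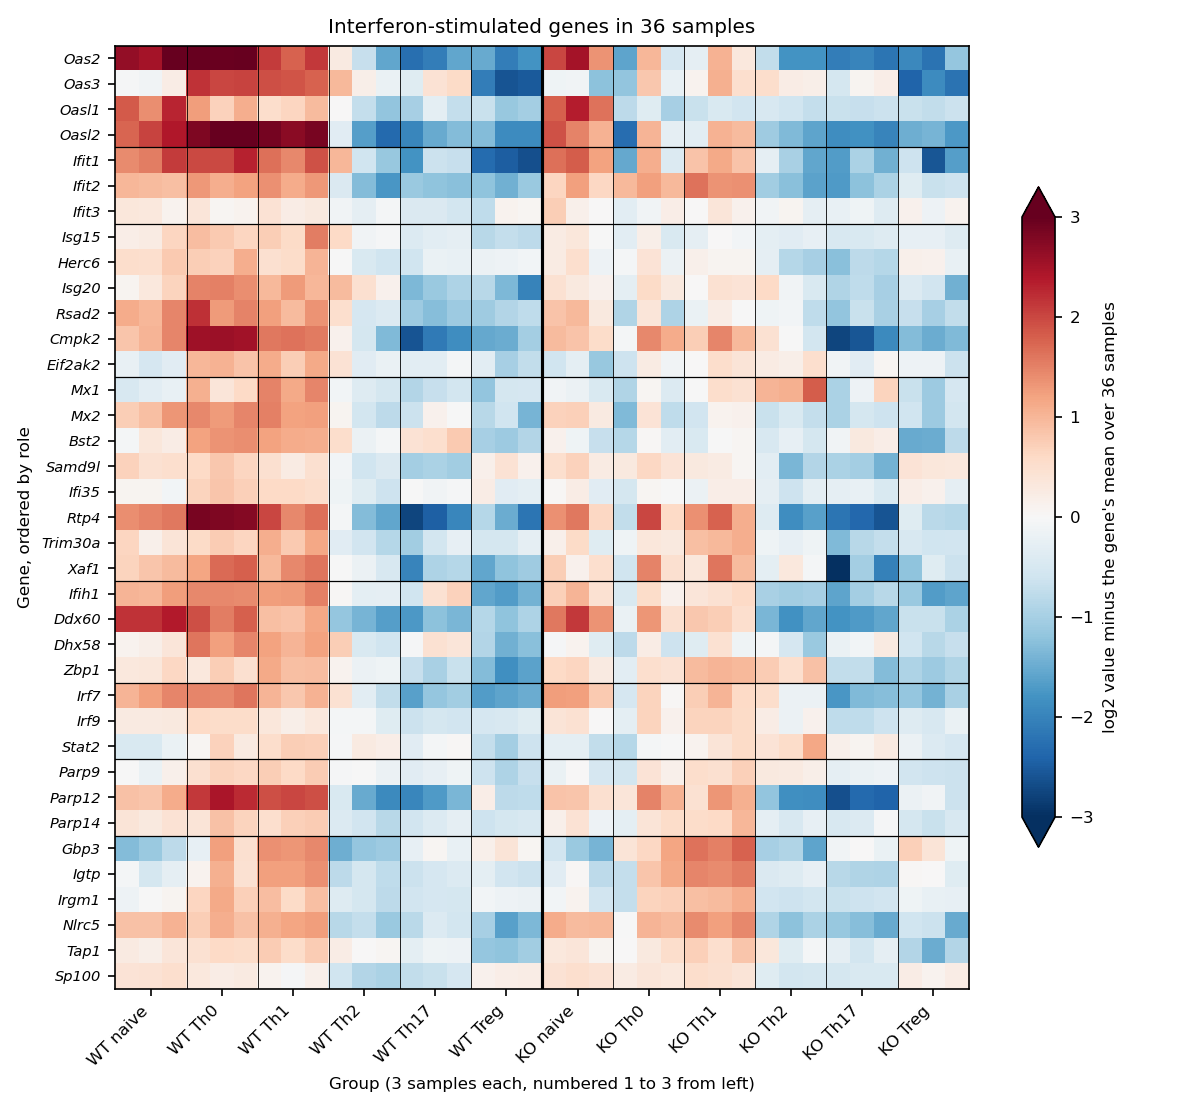
Log2 values of the 37 genes (rows, ordered by role) in the 36 samples (columns, 3 per group), each shown as the value minus the gene's mean over all samples and limited to the range from -3 to 3. WT naive, Th0 and Th1 samples are mostly red and WT Th2, Th17 and Treg samples mostly blue, and the KO Th0 samples are paler or bluer than the WT Th0 samples.

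WT Th0 cells were next compared with WT naive cells. Of the 37 genes 15 were higher in Th0 (40.5%, where 31.2% of all genes tested were higher, so the share is not far from that over all genes) and 1 was lower (22.3% of all genes were), with a median of 0.43 on the log2 scale against 0.05 over all genes. Oas3 went from 8.18, 8.10 and 8.45 to 10.39, 10.21 and 10.24, a rise of 2.04 (standard error, SE, 0.36). Gbp3, a guanylate-binding GTPase, rose by 1.55 (SE 0.26), Cmpk2, a mitochondrial nucleotide kinase next to Rsad2 in the genome, by 1.43 (SE 0.32) and Parp12, an interferon-induced ADP-ribosyltransferase, by 1.33 (SE 0.30). Oasl1, which restrains translation of Irf7 mRNA, was the gene that fell, from 7.29, 6.83 and 7.73 to 6.71, 6.14 and 6.54 (log2 difference -0.82, adjusted p = 0.0048). The samples of these 5 genes did not overlap between naive and Th0 cells. Oas2, Oasl2, Ifit1 and Irf7 were already high in naive cells and their differences did not pass.

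Between WT Th1 and WT Th0 cells few of the genes passed. Ifng was 9.84, 10.57 and 10.69 in Th1 against 5.44, 6.37 and 5.38 in Th0, a difference of 4.64 (SE 0.51, adjusted p = 1.3e-07). Of the list, 1 gene rose (5.43% of all genes were higher) and 1 fell (5.4% were lower). Gbp3 was 7.77, 7.71 and 7.82 in Th1 and 6.15, 7.61 and 6.88 in Th0 (difference 0.88, SE 0.26). Ddx60, a helicase that assists RNA sensing, was 6.91, 6.86 and 7.17 in Th1 and 7.95, 7.53 and 7.80 in Th0 (difference -0.78, SE 0.23). The largest differences did not pass: Rtp4 by -1.10 (adjusted p = 0.14), Oas2 by -1.04 (0.17) and Cmpk2 by -0.95 (0.055), with the samples of Rtp4, Oas2 and Cmpk2 separate. With array weights 10 genes were called and with only the groups compared 9. Neither call survived all single omissions: Gbp3 did not pass without any 1 of WT Th0 1, WT Th0 3 or the 3 WT Th1 samples (adjusted p = 0.061 to 0.30), nor Ddx60 without WT Th0 1, WT Th0 3, WT Th1 1 or WT Th1 2 (0.083 to 0.13). The count was 0 without each of those 4 libraries and 1 without WT Th1 3.

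Against WT Th0, 35 of the 37 genes were lower in WT Th2 (22.9% of all genes were lower), 35 in WT Th17 (18.8%) and 34 in WT Treg (22.4%), and none was higher in any of them (17.2%, 20.3% and 19.2% of all genes were). These comparisons share the WT Th0 samples. The medians were -1.40, -1.37 and -2.10, against -0.06, -0.04 and 0.00 over all genes.

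**Figure D2:**
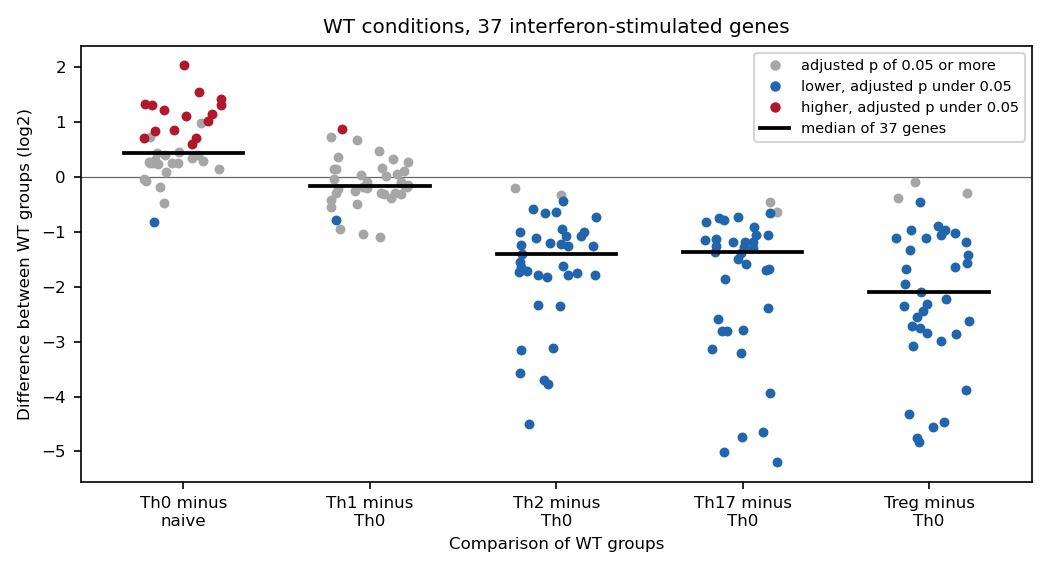
Log2 difference between WT groups for each of the 37 genes (points, n = 3 per group), with the median of the genes as a bar. The Th1 differences lie around 0, and all 37 differences of Th2, Th17 and Treg lie below 0, down to -4.50, -5.19 and -4.83.

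The OAS family fell in all 3 polarized conditions. Oasl2, a ubiquitin-like relative of the OAS enzymes, was 9.81, 10.26 and 10.17 in WT Th0 and 6.68, 5.38 and 4.68 in WT Th2, a 22.6-fold difference (log2 difference -4.50, adjusted p = 2.4e-08). In Th17 it was 5.07, 5.51 and 5.72 and in Treg 5.72, 5.13 and 5.13. Oas3 kept more of its level in Th2 (9.19, 8.39 and 8.01) and Th17 (7.85, 8.64 and 8.78) than in Treg, where it was 6.15, 5.62 and 5.69 (log2 difference from Th0 -4.46). The Treg samples of Oas3 thus lay below every Th2 and Th17 sample, a contrast that was not tested.

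Rtp4, a chaperone-like protein induced by interferon, was 9.92, 9.89 and 9.83 in Th0 and 4.33, 4.63 and 5.12 in Th17 (adjusted p = 2.5e-10). The Th17 mean of Rtp4 lies below 5.26, the level of the filter on low values, where a signal is not shown to exceed background. With such a mean taken at that level, Rtp4 was at least 24.6-fold lower, and folds are given as bounds in this way wherever a group mean lay below it. In Th2 its values were 7.02, 5.79 and 5.53. Cmpk2 was 9.71, 9.73 and 9.69 in Th0 and 4.57, 5.05 and 5.30 in Th17 (at least 21.9-fold). Parp12 was 9.22, 9.54 and 9.33 in Th0 and 6.62, 5.58 and 5.17 in Th2 (11.8-fold). Ifit1, which binds viral RNA that lacks the host's cap methylation, was 9.54, 9.52 and 9.85 in Th0 and 5.25, 5.07 and 4.92 in Treg (at least 20.8-fold). All these samples were separate between the conditions compared.

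The 6 genes tied to interferon-gamma and antigen presentation (Gbp3, Igtp, Irgm1, Nlrc5, Tap1 and Sp100) had medians of -1.32 in Th2, -0.99 in Th17 and -1.01 in Treg. Over the 7 other roles the medians ran from -2.73 (OAS genes) to -0.73 (transcription factors) in Th2, from -3.25 (OAS genes) to -1.06 (PARP genes) in Th17 and from -4.60 (OAS genes) to -1.12 (transcription factors) in Treg. Differences between roles were not tested. Tap1, a subunit of the peptide transporter of MHC class I, was 10.94, 11.09 and 11.02 in Th0, 10.70, 10.48 and 10.54 in Th2 and 9.32, 9.27 and 9.44 in Treg (3.18-fold below Th0). The genes that did not pass were Ifit3 and Stat2 in Th2, Gbp3 and Stat2 in Th17, and Ifit3, Gbp3 and Sp100 in Treg. Among the WT Th2 samples, number 1 was the highest for most genes, with a median deviation from the group mean of 0.29 against -0.09 and -0.25.

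In naive cells no gene of the list passed between KO and WT. No gene was higher and none lower by the limma fit (0.948% and 0.199% of all genes were), although 2 genes, Herc6 and Ddx60, had an unadjusted p under 0.05. In 5 of the 37 genes all KO naive samples lay below all WT samples (5.8% of all genes did so), and in none did they lie above (6.55%). Herc6 was one of the 5, at 9.04, 9.30 and 8.65 in KO and 9.33, 9.31 and 9.60 in WT, and Ddx60 another, at 7.58, 8.11 and 7.35 against 8.17, 8.16 and 8.39. The median difference was -0.16 against -0.02 over all genes, and 29 of the 37 differences were negative. Ifit1 was 9.21, 9.36 and 8.75 in KO and 8.96, 9.09 and 9.64 in WT (difference -0.13, SE 0.50). Irf7 was 9.49, 9.47 and 9.02 in KO and 9.26, 9.46 and 9.71 in WT. Isg15, the ubiquitin-like modifier, was 6.71, 6.80 and 6.46 against 6.65, 6.71 and 7.11. In Ifit1, Irf7 and Isg15 KO naive 3 was the lowest KO sample, and the 2 genotypes overlapped. Mx1 (5.19, 5.13 and 4.84 against 4.82, 4.97 and 5.07), Stat2 (8.46, 8.45 and 8.02 against 8.31, 8.30 and 8.56), Irf9 (10.27, 10.33 and 9.89 against 10.14, 10.13 and 10.17) and Tap1 (10.80, 10.84 and 10.55 against 10.74, 10.65 and 10.83) overlapped as well. With a term for sex the count was also 0, as it was without any 1 of the 6 naive samples.

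In Th0 cells the list was lower in KO. Of the 37 genes, 26 fell (19.6% of all genes were lower) and none rose (16.8% were higher). The median difference was -1.09, against 0.00 over all genes. In 24 genes all 3 KO samples lay below all 3 WT samples, where 26.2% of all genes did so. The 4 genes with the largest differences were Oasl2, Oas2, Ifit1 and Oas3.

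**Figure D3:**
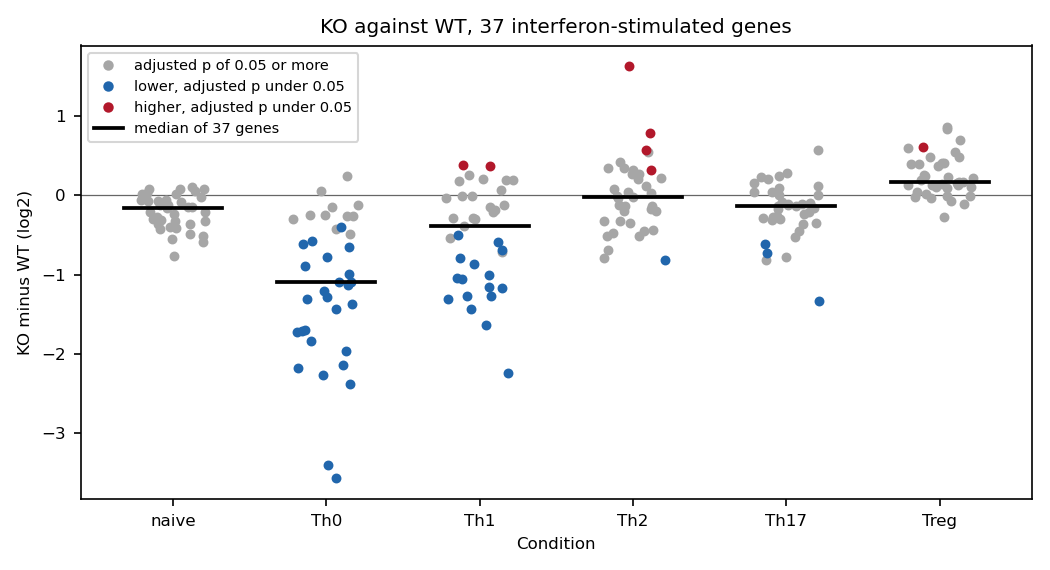
Log2 difference between KO and WT for each of the 37 genes (points, n = 3 per genotype) in the 6 conditions, with the median of the genes as a bar. The 26 blue points in Th0 reach down to -3.57 and the 16 in Th1 to -2.25, and the red points in Th2 are Mx1, Zbp1, Stat2 and Sp100.

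All 4 OAS genes fell in KO Th0 cells. Oasl2 was 4.74, 8.04 and 6.75 in KO against 9.81, 10.26 and 10.17 in WT, an 11.9-fold difference (log2 difference -3.57, SE 0.49, adjusted p = 3.5e-06). Oas2 was 5.29, 7.89 and 6.38 against 9.92, 9.86 and 10.01, a 10.6-fold difference (log2 difference -3.41, SE 0.46). Oas3 was 7.04, 9.02 and 7.997 against 10.39, 10.21 and 10.24 (4.80-fold), and Oasl1 was at least 2.30-fold lower. In each of these genes KO Th0 2 was the highest KO sample, KO Th0 1 was the lowest for Oasl2, Oas2 and Oas3, and the genotypes did not overlap.

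Of the 3 IFIT genes of the list 1 fell. Ifit1 was 6.01, 8.63 and 7.15 in KO Th0 and 9.54, 9.52 and 9.85 in WT Th0 (5.18-fold lower, adjusted p = 0.00047). Its neighbours Ifit2 (7.68, 7.94 and 7.67 against 7.998, 7.79 and 7.92) and Ifit3 (6.55, 6.76 and 7.06 against 7.24, 6.93 and 6.96) did not pass, and their samples overlapped. Ifit3b, outside the list, fell by 0.83 (adjusted p = 0.0047). The genes were not tested against each other. The probe set of Ifit3 varied little across the series, from 6.10 to 7.61, and IFIT genes are near copies of each other, so a share of signal between them cannot be settled from this table.

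All 6 genes for ISG15 conjugation and antiviral enzymes fell in KO Th0 cells. Isg15 was 6.15, 6.64 and 5.999 against 7.39, 7.26 and 7.11 in WT (1.99-fold, adjusted p = 0.00013). Rsad2, the enzyme viperin that makes a chain-terminating nucleotide, was 5.46, 6.74 and 5.43 against 8.56, 7.63 and 7.86 (4.41-fold). Cmpk2 was 3.28-fold lower, Isg20, an exonuclease, 2.43-fold, Eif2ak2, the RNA-activated kinase PKR, 2.19-fold, and Herc6, the mouse ligase for ISG15, 1.71-fold. None of the 6 overlapped between genotypes.

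Of the 8 Mx and other antiviral effectors, 6 fell. Mx1 was 4.39, 5.35 and 4.89 in KO Th0 and 6.37, 5.66 and 5.90 in WT Th0 (at least 1.65-fold), and Mx2, the second dynamin-like Mx GTPase, was 4.10, 5.84 and 4.67 against 6.88, 6.71 and 6.90 (at least 2.97-fold). Bst2, the tetherin that holds budding virus at the cell surface, was 6.12, 7.01 and 6.68 against 8.20, 8.33 and 8.38 (3.25-fold). Rtp4, Ifi35 and Xaf1, a pro-apoptotic zinc-finger protein, were the other genes that fell. Xaf1 did not pass without WT Th0 2 or 3 or KO Th0 1 or 3. Samd9l and Trim30a did not pass (differences of -0.26 and -0.49).

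The RNA sensors Ifih1 (MDA5), Dhx58 (LGP2) and Ddx60 fell by 1.37, 1.83 and 1.21 on the log2 scale, and Zbp1, a sensor of Z-form nucleic acid, did not pass (-0.30). Of the PARP genes Parp12 and Parp9 fell, Parp9 not without KO Th0 1, and Parp14 did not pass (-0.42, adjusted p = 0.057).

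The 3 transcription factors of the list fell as well. Irf7 was 7.73, 8.90 and 8.28 in KO Th0 and 9.71, 9.68 and 9.84 in WT Th0 (2.70-fold, adjusted p = 6.7e-05), without overlap. Stat2 was 7.90, 8.69 and 8.73 against 8.81, 9.45 and 9.01 (1.57-fold, adjusted p = 0.011). Irf9 was 9.57, 10.53 and 10.003 against 10.47, 10.42 and 10.41 (1.32-fold, adjusted p = 0.034), with KO Th0 2 above all WT samples. Stat2 did not pass without WT Th0 2 (adjusted p = 0.096) or KO Th0 1 (0.15), nor Irf9 without WT Th0 1, 2 or 3 or KO Th0 1 or 3 (0.063 to 0.39).

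Of the 6 genes tied to interferon-gamma and antigen presentation only Irgm1 fell in KO Th0 cells, by 0.61 (SE 0.22), and it did not pass without WT Th0 2 or KO Th0 1. The group's median was -0.19. Tap1 was 10.50, 10.78 and 11.002 in KO and 10.94, 11.09 and 11.02 in WT (difference -0.26, SE 0.15, adjusted p = 0.20). Igtp, an immunity-related GTPase, was 9.65, 11.18 and 11.50 in KO and 10.46, 11.42 and 10.82 in WT. Here KO Th0 1 was the lowest of the 6 samples and KO Th0 3 the highest. That this group changed less than the others was not tested.

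**Figure D4:**
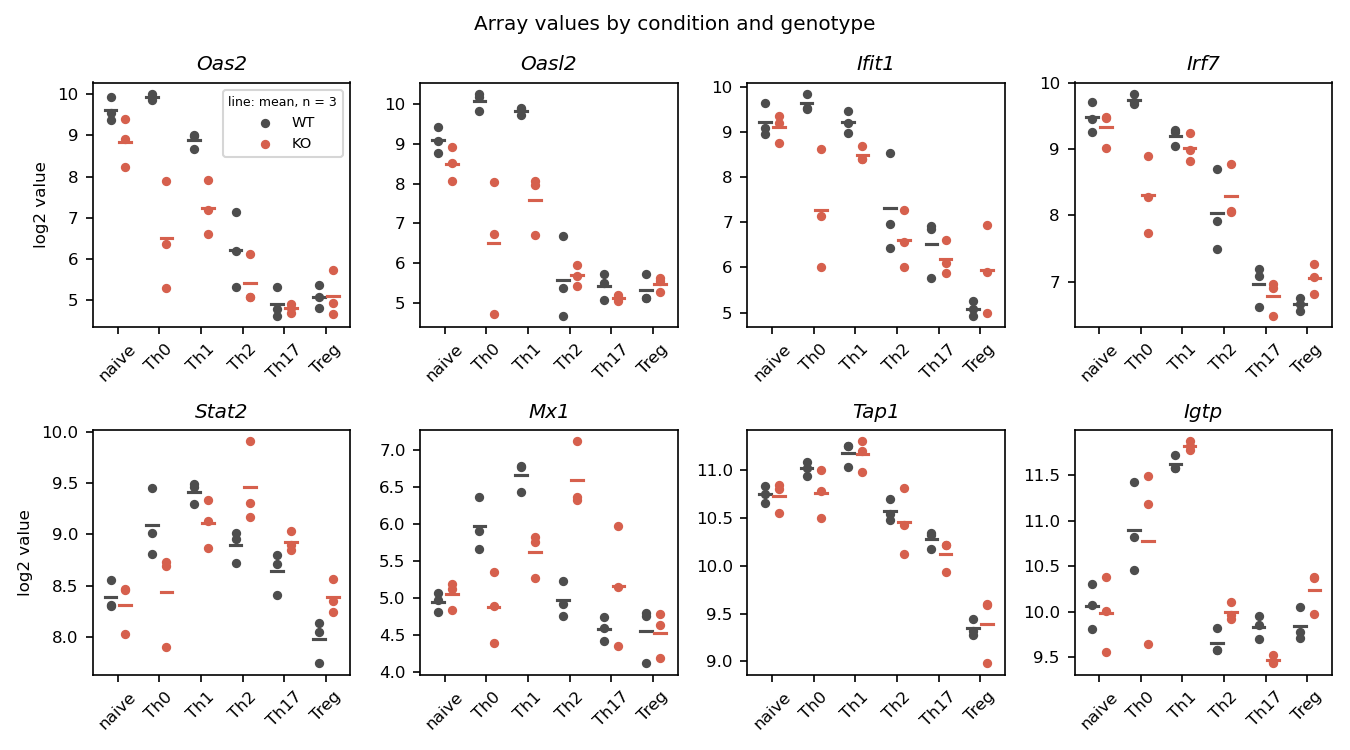
Log2 values of 8 members by condition, with WT samples in grey and KO samples in red, and lines at the means of 3 samples. Oas2, Oasl2, Ifit1 and Irf7 are separate between the genotypes in Th0, Mx1 in Th0, Th1 and Th2, and Tap1 and Igtp overlap in Th0.

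In Th1 cells 16 genes were lower in KO (23.7% of all genes were) and 2 were higher (17% were), with a median of -0.38. All 16 were also among the 26 that fell in KO Th0, so the overlap was 16 of 16 and 16 of 26. The overlap of the 2 comparisons over all genes was not counted, so this is not shown to be particular to the list. These comparisons share no sample, but same-numbered KO Th0 and KO Th1 samples deviated together. The OAS genes again led: Oasl2 was 6.71, 8.07 and 7.96 in KO and 9.90, 9.72 and 9.86 in WT (4.75-fold), and Oas2 was 6.62, 7.92 and 7.19 against 8.98, 8.66 and 9.01 (3.12-fold). Mx2 was 4.85, 5.52 and 5.55 against 6.94, 6.64 and 6.65 (2.71-fold), and Oas3 was 8.32, 9.28 and 8.71 against 10.14, 10.09 and 9.98 (2.47-fold). None of these samples overlapped. Isg15 (6.20, 6.46 and 6.37 against 7.19, 7.04 and 7.98) and Mx1 (5.27, 5.83 and 5.75 against 6.78, 6.43 and 6.76) fell as well, by 2.08-fold and 2.06-fold. Without KO Th1 1, Isg20, Eif2ak2, Ifi35 and Parp12 did not pass.

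Other members fell in KO Th0 and did not pass in KO Th1. Ifit1 was 8.41, 8.69 and 8.40 in KO Th1 and 9.20, 8.99 and 9.46 in WT Th1, separate but with a difference of -0.72 (SE 0.50). Irf7 overlapped (8.98, 9.25 and 8.82 against 9.26, 9.05 and 9.29), as did Tap1, which had not passed in Th0 either (11.20, 10.98 and 11.30 against 11.25, 11.03 and 11.25). Stat2 was 8.87, 9.13 and 9.34 against 9.29, 9.49 and 9.46, a difference of -0.30 (SE 0.20). Irf9 was higher in KO Th1, at 10.54, 10.55 and 10.44 against 10.21, 10.03 and 10.18 (difference 0.37, SE 0.15, adjusted p = 0.046), and without any 1 of the 6 Th1 samples it did not pass (0.057 to 0.15). With the replicate number as a fixed block its adjusted p was 0.052. Sp100, a nuclear body protein, was also higher, at 11.52, 11.48 and 11.38 against 11.11, 10.97 and 11.15. The test of whether the KO difference itself changed from Th0 to Th1 called 0 genes (0.138% of all genes higher and 0.451% lower), 11 at an unadjusted p under 0.05, and 36 of the 37 values were positive. Without KO Th0 2 it called 5.

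The fall in Th0 and Th1 varied with the sample, and the proliferation genes varied with it. Measured as the median over the 37 genes of a sample's deviation from the WT mean, KO Th0 1, 2 and 3 stood at -1.58, -0.61 and -1.07, and KO Th1 1, 2 and 3 at -0.55, -0.24 and -0.46. The mean log2 value of 28 proliferation genes was 7.47, 9.37 and 9.03 in KO Th0 and 7.84, 9.78 and 9.49 in KO Th1, against 10.43 to 10.47 in the 6 WT samples. All 28 were lower in KO in Th0 and in Th1, where 19.6% and 23.7% of all genes were. The proliferation genes differed between WT conditions too. All 28 were lower in WT Treg than in WT Th0 (22.4% of all genes were), with a median of -2.18. In WT Th2 1 of them was lower than in WT Th0 (22.9% of all genes were) and in WT Th17 4 were (18.8%). Their mean level in WT naive cells was 6.45 to 6.50. The part of proliferation in the results was not tested. With sample 1 of both KO groups left out, 21 members were called in Th0, all lower, and 13 in Th1, of which 12 were lower and 1 was higher.

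**Figure D5:**
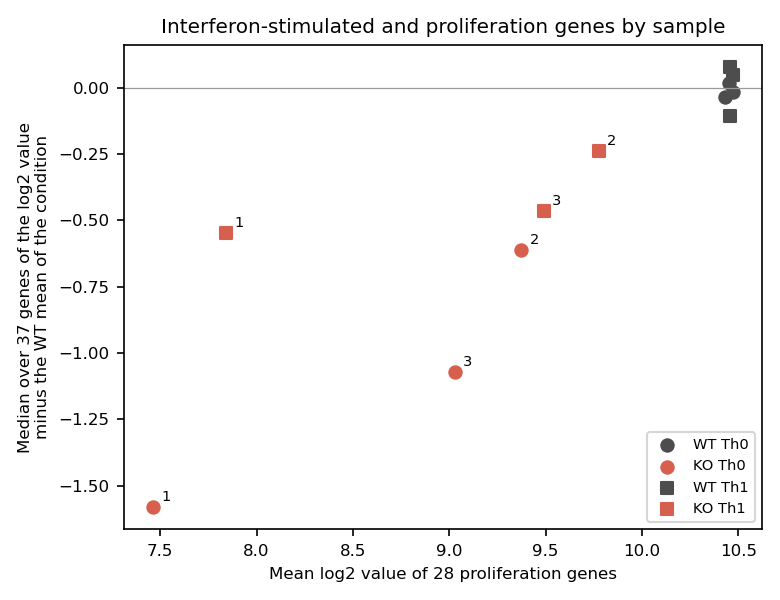
Each Th0 (circle) and Th1 (square) sample by its mean log2 value of 28 proliferation genes (x axis) and the median over the 37 genes of its deviation from the WT mean of its condition (y axis), with the KO samples numbered. The 6 WT samples lie between 10.43 and 10.47 on the x axis, and all 6 KO samples lie to the left of them and below 0.

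Between conditions the KO difference of the program itself differed. It was more negative in Th0 than in naive cells for 17 genes (10.4% of all genes) and less for none (8.06%), with Oasl2 (-2.99, SE 0.70) and Oas2 (-2.64, SE 0.65) at the head. Ifit1 (-2.25, adjusted p = 0.027) and Rtp4 (-1.89, adjusted p = 0.041) passed, but Ifit1 did not without WT naive 1 or 2, WT Th0 3, KO naive 1 or 2 or KO Th0 1 (adjusted p = 0.051 to 0.12), nor Rtp4 without any 1 of 10 of the 12 samples, all but KO naive 3 and KO Th0 2 (0.059 to 0.18). The count was 10 when WT naive 1, WT naive 2 or KO naive 1 was left out, 11 without WT Th0 1 or KO naive 2, and 6 without KO Th0 1. Against Th0, the KO difference was higher in Th2 for 18 genes (4.97% of all genes), in Th17 for 19 (7.41%) and in Treg for 25 (13.1%), and lower for none of them (5.22%, 8.22% and 13.9%). These 3 tests share the Th0 samples, and the WT levels of most members were lower in the 3 conditions set against Th0. For 8 of the 18 genes called in Th2, 11 of the 19 in Th17 and 15 of the 25 in Treg, the WT mean there was so low that a KO difference as large as in Th0 would end below the filter level of 5.26. For those genes a fall of the Th0 size could not be read in full, so the low level can make up part or all of the term. Mx1 in Th2 was higher in KO. Some others had room for most of such a fall and no lower KO mean, though these differences did not pass. Among them were Cmpk2 in Th2 (means 6.592 in WT and 7.135 in KO), and Dhx58 (7.04 and 7.53) and Irf7 (6.66 and 7.05) in Treg. Others had a lower KO mean, such as Oas2 in Th2 (6.224 and 5.435). The Th17 count was 12 without WT Th17 1 and 10 without KO Th0 1.

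In Th2 cells a few genes differed. Against WT Th2, 4 genes were higher in KO (7.51% of all genes were) and 1 was lower (8.88%), and the median was -0.03. Mx1 stood out, at 6.32, 6.36 and 7.12 in KO and 5.22, 4.92 and 4.76 in WT (at least 2.53-fold higher, adjusted p = 0.00019). Its KO Th2 level lay in the range of WT Th0 and WT Th1 cells (5.66 to 6.78) or above it, whereas its paralog Mx2 was 4.76, 4.98 and 4.71 in KO and 5.51, 4.89 and 4.65 in WT. Zbp1 was 10.70, 10.43 and 10.82 against 10.04, 9.76 and 9.80 (1.72-fold higher). Stat2 was 9.17, 9.31 and 9.91 against 8.72, 9.01 and 8.95 (1.48-fold, adjusted p = 0.049), and did not pass without any 1 of WT Th2 1, 2 or 3 or KO Th2 2 or 3 (0.063 to 0.28). Ifih1 was lower, at 7.11, 7.04 and 7.07 against 8.11, 7.78 and 7.79 (1.76-fold, adjusted p = 0.017), and did not pass without WT Th2 1 (0.078) or KO Th2 2 (0.055). The genotypes did not overlap in these 4 genes, and Sp100 was the other gene that rose (0.32). The count was 3 without WT Th2 1, WT Th2 3 or KO Th2 2. The summed level of the 13 myeloid genes was 75.55 to 76.47 in WT Th2 and 78.54 to 81.82 in KO Th2, with Adgre1 and Ly6c2 higher among the 7 of them tested, and its part in the result was not tested.

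The remaining genes read in every comparison did not pass in Th2. Ifit1 was 7.28, 6.57 and 6.001 in KO and 8.55, 6.96 and 6.42 in WT. Irf7 was 8.77, 8.07 and 8.05 against 8.69, 7.92 and 7.49, and Irf9 was 10.09, 9.69 and 9.99 against 9.80, 9.81 and 9.50. Isg15 (6.16, 6.12 and 6.20 against 7.05, 6.37 and 6.41) was separate between the genotypes, with WT Th2 1 the highest, and Tap1 (10.81, 10.12 and 10.42 against 10.70, 10.48 and 10.54) overlapped.

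In Th17 cells 3 genes were lower in KO (4.18% of all genes were) and none was higher (4.03%), with a median of -0.14. Ifih1 was 6.50, 7.05 and 7.23 in KO and 7.49, 8.53 and 8.76 in WT (2.52-fold, adjusted p = 0.00035). Nlrc5, the activator of MHC class I genes, was 7.91, 7.77 and 7.54 against 8.26, 8.64 and 8.51 (1.66-fold, adjusted p = 0.032). Herc6 was 7.56, 8.02 and 7.95 against 8.20, 8.60 and 8.58 (1.53-fold, adjusted p = 0.049). All 3 were separate between the genotypes, yet without WT Th17 2, WT Th17 3, KO Th17 2 or KO Th17 3 only Ifih1 remained, with the adjusted p of Nlrc5 at 0.077 to 0.13. Herc6 also failed without KO Th17 1 (adjusted p over all such omissions 0.057 to 0.24), and with the replicate number as a fixed block (0.055). The other genes read throughout did not pass: Irf7 (6.48, 6.91 and 6.96 against 6.61, 7.08 and 7.18), Stat2 (8.90, 8.84 and 9.03 against 8.41, 8.71 and 8.80), Irf9 (9.11, 9.12 and 9.24 against 9.22, 9.33 and 9.30), Isg15 (5.98, 5.996 and 6.08 against 6.06, 6.15 and 6.19), Ifit1 (5.88, 6.61 and 6.11 against 5.76, 6.92 and 6.86) and Tap1 (10.21, 9.93 and 10.21 against 10.18, 10.34 and 10.32). Mx1 ranged widely in KO Th17, at 4.36, 5.14 and 5.98, against 4.42, 4.60 and 4.74 in WT. The myeloid sum was 67.92 to 68.95 in WT Th17 and 70.43 to 71.26 in KO Th17, and 61.09 to 63.93 and 63.76 to 66.49 in Treg, with Itgam higher in both; its part was not tested.

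In Treg cells 1 gene was higher in KO (1.71% of all genes were) and none lower (2.51%). Zbp1 was 9.001, 8.85 and 9.02 in KO and 8.64, 8.09 and 8.32 in WT (1.53-fold, adjusted p = 0.047), and it did not pass without any 1 of WT Treg 2 or 3 or KO Treg 1, 2 or 3 (0.079 to 0.28) or with the replicate number as a fixed (0.056) or random block (0.052). The median of the list was 0.16 against -0.03 over all genes, and 30 of 37 differences were positive. Irf7 (7.07, 6.81 and 7.26 against 6.56, 6.66 and 6.75), Stat2 (8.57, 8.35 and 8.25 against 8.05, 7.74 and 8.14) and Isg15 (6.22, 6.22 and 6.06 against 5.64, 5.75 and 5.68) had all KO samples above all WT samples and did not pass. Ifit1 was 6.94, 4.99 and 5.90 in KO against 5.25, 5.07 and 4.92. Irf9 (9.48, 9.40 and 9.67 against 9.37, 9.38 and 9.50), Mx1 (4.63, 4.20 and 4.78 against 4.12, 4.76 and 4.80) and Tap1 (9.60, 8.98 and 9.59 against 9.32, 9.27 and 9.44) overlapped. Averaged over the 6 conditions, 18 genes were lower in KO (27.5% of all genes were) and 1, Sp100, was higher (18.9%). Oas2 (-1.12, SE 0.19), Oasl2 (-1.07), Ifih1 (-0.78) and Bst2 (-0.77) had the largest mean differences.

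Upstream of the program stand the interferon genes. Of 19 on the array, 8 passed the filter on low values. None of the 8 passed in KO Th0, and in KO Th1 Ifng fell and Ifnl2 rose (0.30, adjusted p = 0.018). The mean level of the 19 was 4.62 to 4.835 in WT Th0 and 4.69 to 4.70 in KO Th0. Those levels are below 5.26, where a signal is not shown to exceed background, so unchanged expression of the interferon genes is not shown. Ifng was 6.34, 8.02 and 10.20 in KO Th1 against 9.84, 10.57 and 10.69 in WT Th1 (4.52-fold lower, adjusted p = 0.0011). KO Th1 1 was the lowest, and KO Th1 3 lay within the WT range. In Th1 Igtp, the GTPase of the list named above, was 11.82, 11.78 and 11.88 in KO and 11.58, 11.58 and 11.72 in WT.

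Receptors and kinases were in part higher in KO cells. Of 8 such genes tested, 5 rose in KO Th0 (16.8% of all genes were higher) and none fell (19.6% were lower). The 5 were Ifngr1 (0.54, SE 0.15), Jak1 (0.44), Jak2 (0.41), Tyk2 (0.26) and Il10rb. In KO Th1, Ifngr2 rose by 1.36 (SE 0.16), and Ifnar2, Jak1 and Jak2 rose by 0.41 to 0.47. Ifnar1, the first chain of the type I receptor, was 10.28, 10.32 and 10.37 in KO Th0 and 10.11, 10.18 and 10.18 in WT Th0 and did not pass (adjusted p = 0.22). Ifnar1 was higher in KO Th2 (0.30, adjusted p = 0.044) and KO Th17 (0.34, 0.039) and lower in KO Treg (-0.36, 0.043), and each of these calls was lost in 4 or 5 of the 6 single omissions. In WT Th17 cells Ifnar1 was 9.19, 9.50 and 9.47, below WT Th0 by 0.77 (SE 0.10).

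Among STAT and IRF factors outside the list, 4 of 7 rose in KO Th0 (16.8% of all genes were higher) and 1 fell (19.6% were lower). Stat4, which carries the signal of interleukin-12, rose by 0.64 (SE 0.16), and Stat3 by 0.34. Irf1, the factor induced by interferon-gamma, was 9.27, 10.08 and 9.58 in KO Th0 and 8.70, 9.67 and 8.92 in WT Th0 (difference 0.55, adjusted p = 0.037), and did not pass without WT Th0 1 or 3 or KO Th0 2 or 3 (0.058 to 0.25). In KO Th1 Irf1 was 10.23, 10.09 and 9.99 against 9.60, 9.35 and 9.46 (difference 0.63, adjusted p = 0.014), without overlap, and did not pass without WT Th1 2 (0.058) or KO Th1 1 (0.065). Irf8 fell in KO Th0 by 1.61 (SE 0.39) and in KO Th1 by 1.31.

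Usp18, the protease that removes ISG15 from proteins and holds back IFNAR signalling, was higher in KO than in WT in 3 of the 6 conditions. In WT cells it was 10.86, 10.72 and 10.89 in Th0, 8.64, 8.10 and 8.32 in Th2, 6.22, 6.75 and 7.18 in Th17, and 5.001, 5.36 and 5.47 in Treg. In KO cells it was 10.34, 10.59 and 10.05 in Th2, 8.50, 8.47 and 8.50 in Th17 and 9.27, 8.96 and 8.07 in Treg, all above the WT samples. Usp18 was thus 3.93-fold higher in KO Th2 (adjusted p = 3.4e-06), 3.41-fold in KO Th17 (2.8e-05) and 11.2-fold in KO Treg (1.7e-10). In Th0 it was 9.85, 11.06 and 10.25 in KO and overlapped with WT (difference -0.44, adjusted p = 0.20), and in Th1 it was 11.75, 11.88 and 11.57 against 11.04, 11.30 and 11.50 (0.45, adjusted p = 0.17). Naive cells had 10.80, 11.23 and 11.10 in KO and 10.07, 9.86 and 10.35 in WT, a difference of 0.95 that did not pass (adjusted p = 0.082). Of the 10 signalling inhibitors, Trim24, a relative of TRIM28, rose in KO in every condition, by 2.10 in naive cells and 1.18 in Th0, and Socs3 rose in KO Th0 (0.63), Th1 (0.60), Th2 (0.58) and Th17 (0.57) and fell in KO Treg (-0.56).

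Of 40 interferon-stimulated genes outside the list, tested as a separate list, 28 were lower in WT Th2, 30 in WT Th17 and 26 in WT Treg than in WT Th0. Of all genes, 22.9%, 18.8% and 22.4% were lower in these comparisons. In KO Th0, 12 fell (19.6% of all genes were lower) and 1 rose (16.8% were higher), and the median was -0.33. Ifitm3, which blocks viral entry, fell by 2.08 (SE 0.42), Lgals3bp by 1.56, Ifitm2 by 1.45 and Rnf213 by 1.17. In KO Th1, 7 of the 40 fell and 4 rose, where 23.7% of all genes were lower and 17% higher, so neither share is above that over all genes. Of 11 further interferon-gamma-inducible GTPase genes none passed in KO Th0. In KO Th17 5 fell (4.18% of all genes were lower), led by Gbp11 (-2.03, SE 0.42), Gbp8 (-1.46), Gbp7 (-1.16) and Gbp9 (-1.08). Guanylate-binding genes are near copies of each other, so their probe sets may share signal. Of 15 MHC class I and antigen processing genes 6 fell in KO Th0 and 1 rose, where 19.6% of all genes were lower and 16.8% higher. The immunoproteasome subunits Psmb9 (-0.67, SE 0.18) and Psmb8 (-0.57, SE 0.11) were among them, and Tapbpl rose by 0.65.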

How the data were processed

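The authors deposited log2 intensities for 36 arrays read on an Affymetrix GeneTitan, which were made with oligo and RMA under R 3.1.0, per the submitters' processing notes. Neither an annotation nor a version of oligo is given in the sources used here. No further normalization was applied. Probe sets with exactly 1 symbol were used, the one with the highest mean where a gene had several (among the members Ifi35 and Sp100), which gave 22180 genes. Of these, 13082 exceeded 5.26, the median of the whole table, in 3 samples or more and were tested.

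A mean for each of the 12 groups was fitted to all 36 samples with limma 3.58.1 in R 4.3.3 (24 residual degrees of freedom), and 17 comparisons were taken from it. P-values were adjusted by the Benjamini-Hochberg method over all genes of a comparison, and a gene passed at an adjusted p under 0.05. The members, the lists and the tests were chosen with earlier results of these data known. Values were given for the 4 called members with the largest difference in a comparison, for Irf7, Stat2, Irf9, Isg15, Ifit1, Mx1 and Tap1 in every KO comparison, for up to 4 called genes of each other list, and for Irf1, Usp18, Ifng, Ifnar1 and Trim28; other members are given by counts, ranges or single values. The steps were tested on simulated data.

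To see whether equal sample numbers pair the samples, their deviations from group means were correlated. All 3 correlations were above 0.1 for KO Th0 with KO Th1 (0.70, 0.60 and 0.51), WT Th0 with WT Th1 (0.39, 0.33 and 0.23) and WT Th0 with WT Th2 (0.25, 0.12 and 0.11), among others (also WT Treg with KO Th17), and for no KO and WT pair of the same condition. This pairing comes from the data, not from the labels, and the fit held no block. Alternatives were no filter, a filter at the 70th percentile (6.95), quantile normalization, centering on the sample median, cyclic loess, averaging the probe sets of a gene, a trended robust prior, array weights, only the groups compared, 3 replicate blocks, each sample left out, both KO samples numbered 1 left out, a sex term and a promoter window of 150 bases.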

Additional observations from a re-analysis of the deposited data

Results flagged for a closer look

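The difference between KO and WT itself differed between conditions, by the interaction terms of the limma fit, for the results below. None was weighed for its cause.

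From naive to Th0 cells the KO difference fell for 17 of the 37 genes (10.4% of all genes), and for 6 without KO Th0 1. Among the 17 were Oasl2 (-2.99, adjusted p = 0.0040), Oas2 (-2.64, 0.0056), Ifit1 (-2.25, 0.027) and Rtp4 (-1.89, 0.041), of which Ifit1 and Rtp4 did not pass without single samples (adjusted p = 0.051 to 0.12 and 0.059 to 0.18). Usp18 (-1.39, 0.010) moved the same way, as did Trim28 itself (-1.85, 7.6e-06), whose KO values were 7.20 to 7.86 in naive and 5.68 to 6.06 in Th0 cells.

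From Th0 to Th2 the KO difference rose for 18 genes (4.97% of all genes), led by Oasl2 (3.68, adjusted p = 0.0011), Mx1 (2.73, 7e-05), Oas2 (2.62, 0.0096) and Cmpk2 (2.26, 0.0019), and for Usp18 (2.42, 9.8e-05). Mx1 was lower in KO than in WT in Th0 and higher in Th2. For 8 of the 18, a KO difference of the Th0 size would end below the filter level of 5.26 in Th2. Oasl2, Oas2 and Cmpk2 are among the 8. That low level can make up part or all of the term. Mx1, also among the 8, was higher in KO Th2. Cmpk2 had means of 6.592 in WT Th2 and 7.135 in KO Th2, with room for most of its Th0 fall, and that difference did not pass.

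From Th0 to Th17 it rose for 19 genes (7.41% of all genes), led by Oas2 (3.30, adjusted p = 0.00099), Oasl2 (3.27, 0.0021), Rsad2 (2.34, 0.00027) and Rtp4 (2.19, 0.022), and for Usp18 (2.21, 0.00022). Rtp4 did not pass without WT Th17 1 (adjusted p = 0.051) or KO Th0 1 (0.096). The same limit holds for 11 of the 19, all 4 of these members included: in Th17 the means of Oas2 were 4.92 in WT and 4.81 in KO, and those of Rtp4 4.69 and 4.70.

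From Th0 to Treg it rose for 25 genes (13.1% of all genes), led by Oasl2 (3.73, adjusted p = 0.00035), Oas2 (3.43, 0.00037), Ifit1 (3.24, 0.0015) and Rtp4 (3.02, 0.0012). Usp18 (3.93, 5.6e-08) rose with them, Trim28 by 0.75 (adjusted p = 0.014), and Ifnar1 fell by 0.52 (0.0086). WT Treg samples of Trim28 were 9.21 to 9.53, the lowest among stimulated WT cells. In Treg the limit holds for 15 of the 25, again with all 4 of the members named, and the means of Oas2 were 5.09 in WT and 5.11 in KO.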

How the results depend on the processing

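No value of a named gene that passed changed its sign under any alternative; 2094 of their values kept the call and 145 did not pass. Of 84 values of named genes that had not passed, 16 passed under some alternative, among them Usp18 in KO naive cells with only the groups compared (0.95, adjusted p = 0.049), and 31 changed sign without passing. Counts of called genes that moved by over 1.5 times were these. In KO Treg the count of 1 became 0 with no filter, median centering, only the groups compared, and the fixed and random replicate blocks, 2 with cyclic loess and 9 with array weights. In WT Th1 against Th0 the count of 2 became 1 with quantile normalization, 10 with array weights and 9 with only the groups compared. In KO Th17 the 3 became 7 with array weights and 5 with only the groups compared. With only the groups compared, KO Th2 went from 5 to 3, WT Th0 against naive from 16 to 25 and the Th2 minus Th0 term from 18 to 9. The Th1 minus Th0 term went from 0 to 1 with array weights. With both KO samples numbered 1 left out, the Th0 minus naive term went from 17 to 8 and the Th17 minus Th0 term from 19 to 11 (10 higher and 1 lower). The causes were not tested. The fixed replicate block gave 27 calls in KO Th0 and 17 in KO Th1. Among named genes that had passed, it lost Irf9 in KO Th1, Herc6 in KO Th17 and Zbp1 in KO Treg, as given beside the results, and the random block lost Irf9 in KO Th1 (adjusted p = 0.051), Zbp1 in KO Treg and Ifit1 for the mean (0.063). The stricter filter left out Mx1 and Mx2.

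With each sample left out in turn the counts ranged from 0 to 0 in KO naive, 21 to 28 in Th0, 13 to 17 in Th1, 3 to 5 in Th2, 1 to 3 in Th17, 0 to 1 in Treg and 17 to 23 for the mean. They ranged from 15 to 17 for WT Th0 against naive, 0 to 3 for WT Th1, 33 to 35 for WT Th2, 35 to 37 for WT Th17 and 33 to 35 for WT Treg against Th0. The terms ranged from 6 to 22 (Th0 minus naive), 0 to 5 (Th1 minus Th0), 13 to 25 (Th2), 10 to 21 (Th17) and 21 to 28 (Treg).

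Median centering moved the median of all genes by 0.16 in WT Th0 against naive (0.11 by quantile, 0.12 by cyclic loess) and by -0.11 in KO Th1. Of all called genes, the share called higher went with it from 46.1% to 35.6% in KO Th0, 41.8% to 29.6% in KO Th1, 45.8% to 33.7% in KO Th2, 40.7% to 27.3% for the KO mean, 43.6% to 33.3% for the Th0 minus naive term and 58.3% to 70.5% in WT Th0 against naive. Cyclic loess moved it from 43.6% to 32.5% for the same term, 40.6% to 50.7% in KO Treg, 50.2% to 64.9% in WT Th1 (61.6% by quantile), 42.8% to 53.1% in WT Th2, 47.4% to 62.0% for the Th17 term and 48.5% to 61.0% for the Treg term. In a window of 150 bases, 11 of 28 promoters held the ISRE core and 3 the GAS letters.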

Other observations

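Genes that sense nucleic acid upstream of interferon were read as a list of 13 tested genes. In KO Th0, 4 rose and 3 fell, where 16.8% of all genes were higher and 19.6% lower, so the share that fell is close to that over all genes. Cgas, the DNA sensor that makes cGAMP, fell by 1.55 (SE 0.16, adjusted p = 5e-08), and in KO Th1 it fell by 1.16. Adar, the RNA-editing enzyme, fell in KO Th0 by 0.52 and Ddx58 (RIG-I) by 0.48. Ikbke, a kinase that activates interferon regulatory factors, rose in KO Th0 (0.52) and KO Th1 (0.71). Mavs, the adaptor of RNA sensing, rose in KO Th1 (0.28), KO Th2 (0.44) and KO Treg (0.50). In WT cells Tlr7 was lower in Th17 than in Th0 by 4.16 (SE 0.22).

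Of the p200 genes, interferon-inducible DNA-binding proteins that are near copies of each other, 6 were tested. In WT cells 5 were lower in Th2, 5 in Th17 and 4 in Treg than in Th0. Of all genes, 22.9%, 18.8% and 22.4% were lower in these comparisons. In Th17 the fitted differences were -5.71 for Ifi214 and -5.28 for Ifi209. The mean level of the list's 9 genes on the array was 3.85 to 3.93 in WT Th17, below the filter level. A signal is not shown to exceed background there, so these 2 differences are not read as full sizes. In KO Th0 Ifi213 fell by 1.16 (SE 0.40). Ifi204 rose by 5.07 from WT Th0 to WT Th1 and was lower in KO Th1 than in WT Th1 by 3.79 (SE 0.45, adjusted p = 3.6e-07).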
